A study of Homo sapiens with 6 samples.

Results

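The BCL2 family genes examined here are the 10 members BCL2, BCL2L1, BCL2L2, MCL1, BCL2L11, BID, BAD, BAK1, PMAIP1 and BMF. They were chosen by name, and their 86 annotated transcripts were all found in the deposited tables, among 35580 genes in all. Every member passed the filter on low counts that left 15223 genes to test. The samples were Rh30 cells, an established line of alveolar rhabdomyosarcoma positive for the fusion of PAX3 with FOXO1, in 3 control libraries and 3 libraries from cells with a knockdown of the RNA helicase DDX5 by small interfering RNA (siDDX5). Both groups carry the fusion and come from 1 cell line, and the control is described in the labels used here by the word control alone. The depth was 18202402 to 26156858 estimated counts per library, as kallisto assigned them to transcripts.

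DDX5 checked the labels. It measured 1352, 1434 and 1137 CPM (estimated counts relative to the library total, scaled by the trimmed mean of M-values, TMM) in control replicates 1, 2 and 3, and 549, 504 and 396 CPM in the siDDX5 replicates. The log2 fold change was -1.44 ± 0.15 (SE; adjusted p = 0.0106, edgeR quasi-likelihood test), and the adjusted p was 0.0953 without control replicate 1, 0.0653 without siDDX5 replicate 1 and 0.0531 without siDDX5 replicate 2. Of the 11 listed myogenic and rhabdomyosarcoma markers, 10 were expressed at levels that could be tested and 0 were called, and TFAP2B was listed at 0 in every library. Of the 6 markers of other cells, ALB, EPCAM and LYZ lay below the filter, PTPRC and GFAP ranged from 0.531 to 4.02 CPM, and PECAM1 ranged from 10.3 to 14.9 CPM in both groups.

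The BCL2 family sets the threshold at which the outer mitochondrial membrane is permeabilised, the step that releases cytochrome c and commits a cell to apoptosis. Pro-survival proteins (BCL2, BCL-XL from BCL2L1, BCL-W from BCL2L2 and MCL1) hold a groove that binds the BH3 helix of their partners. BH3-only proteins (BIM from BCL2L11, BID, BAD, NOXA from PMAIP1 and BMF) occupy that groove or activate the effectors, and BAK1 is an effector that forms the membrane pore.

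The BH3 core of the members is a short stretch. It is shown here for the 2 BH3-only genes whose counts separated the groups and for the effector. It is also shown for the 2 most highly expressed pro-survival genes, whose proteins bind partners through the groove. Each line gives 10 codons of the coding strand from GENCODE v29 transcripts (GRCh38), 5′ to 3′. Capitals mark the codon of the leading leucine and the codons of the small residue and the aspartate that follow it, 4 and 5 residues after the leucine.
BCL2L11, from codon 152, chr2:111150100-111150129, plus strand: gagTTGcggcgtattGGAGACgagtttaac
BMF, from codon 137, chr15:40104198-40104227, minus strand: aagCTTcagtgcattGCAGACcagttccac
BAK1, from codon 78, chr6:33575390-33575419, minus strand: cagCTCgccatcatcGGGGACgacatcaac
BCL2L1, from codon 90, chr20:31721925-31721954, minus strand: gcgCTGagggaggcaGGCGACgagtttgaa
MCL1, from codon 213, chr1:150578868-150578897, minus strand: accTTAcgacgggttGGGGATggcgtgcag
The codon named on each line is that of the leucine, and 1 codon before it is printed. The core was searched as a leucine or methionine, 3 residues of any kind, a glycine, alanine or serine, an aspartate, any residue and a hydrophobic residue (F, L, V, I or M). It matched once in the most abundant complete coding transcript of each of the 10 members. The same pattern occurred in 15.1% of the 19526 genes with a complete coding sequence, so the match alone does not mark a BH3 protein.

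MCL1 and BCL2L1 were the most highly expressed members. On the TPM scale, which divides counts by transcript length and library total, MCL1 was at 114, 97.2 and 118 in control replicates 1 to 3 and BCL2L1 at 109, 82.8 and 102. These values overlapped, so the order of the leading pair in control cells was not resolved. PMAIP1 followed at 59.7 ± 15.8 TPM (SD, n = 3), then BID at 34.9 ± 6.95 and BCL2L2 at 33.1 ± 4.78, which overlapped each other. BAD at 23.7 ± 3.97, BCL2L11 at 19.7 ± 5.38 and BAK1 at 15.7 ± 1.46 TPM formed a run in which each overlapped the next. BMF at 5.34 ± 1.57 and BCL2 at 2.11 ± 0.403 TPM were the lowest members, and each was clear of its neighbours. Over transcripts of at least 1000 bases, a sum added after the data were seen that leaves out the 929-base main BAD transcript, BCL2L2 stood above BID and BAK1 above BCL2L11.

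In siDDX5 cells the order kept MCL1, BCL2L1, PMAIP1, BID and BCL2L2 in ranks 1 to 5 and BMF and BCL2 in ranks 9 and 10. BCL2L11 was in rank 6 with 25.5 ± 3.87 TPM, BAK1 in rank 7 with 19.5 ± 2.04 and BAD in rank 8 with 19.4 ± 3.64. BAK1 and BAD overlapped, and BCL2L11 overlapped both BCL2L2 and BAD, so its rank was not resolved. MCL1 and BCL2L1 together held between 84.3% and 87.8% of the summed TPM of the 4 pro-survival genes in every library. That sum was 243 ± 25.2 TPM in control and 239 ± 25.4 in siDDX5 cells. The summed TPM of the 5 BH3-only genes was 147, 120 and 162 in control replicates 1 to 3 and 159, 166 and 170 in siDDX5 replicates 1 to 3. The groups overlapped in both sums.

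**Figure D1:**
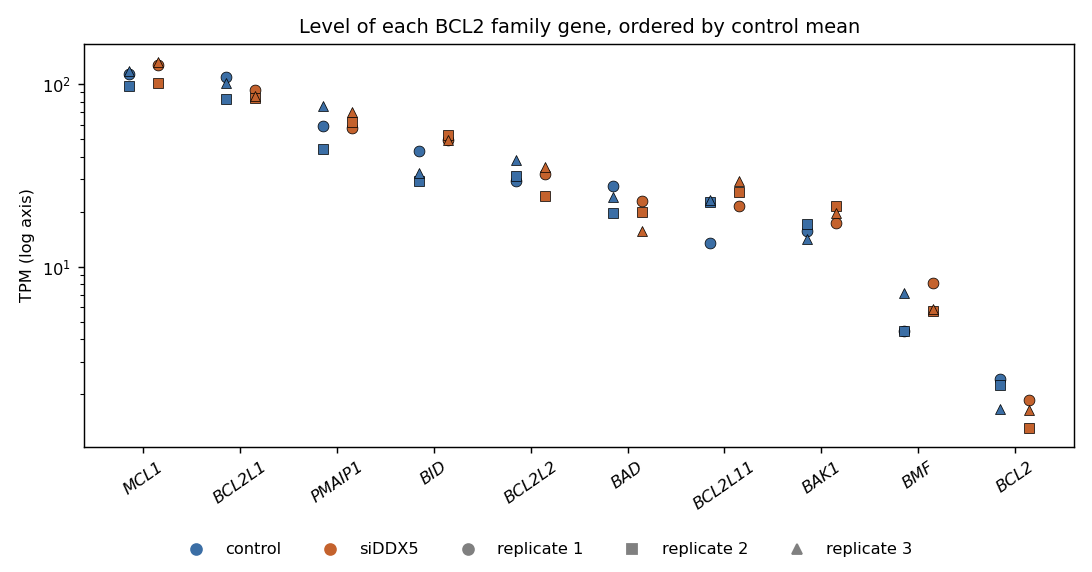
TPM of each BCL2 family gene (log axis) in the 3 control libraries (blue) and the 3 siDDX5 libraries (orange), ordered by the control mean, with the marker shape giving the replicate number. MCL1 and BCL2L1 lie at about the same level at the top, and BCL2 is lowest at 2.11 TPM in control cells.

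The comparison of siDDX5 with control asked whether any member changed when DDX5 was reduced. With the groups compared directly by edgeR, 0 of the 10 members passed an adjusted p of 0.05, where 0.164% of all genes tested did. At an unadjusted p under 0.05, 3 members were past the line (BCL2L11, BMF and BAK1, all higher in siDDX5), beside 11.4% of all genes. The labels state no pairing, and the replicate numbers were taken to pair the samples from a check on these same data. When that pairing was fitted (the replicate block), BCL2L11 and BMF were called, both higher, where 2.59% of all genes were called. In that fit, 4 members had an unadjusted p under 0.05 (the same 3 and MCL1), beside 20.5% of all genes. The libraries of the 2 groups did not overlap in CPM for 2 members, BCL2L11 and BMF, and did not overlap for 18.1% of all genes. By log2 fold change 6 members were above 0 and 4 below, with a median of 0.17 beside -0.002 over all genes tested.

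**Figure D2:**
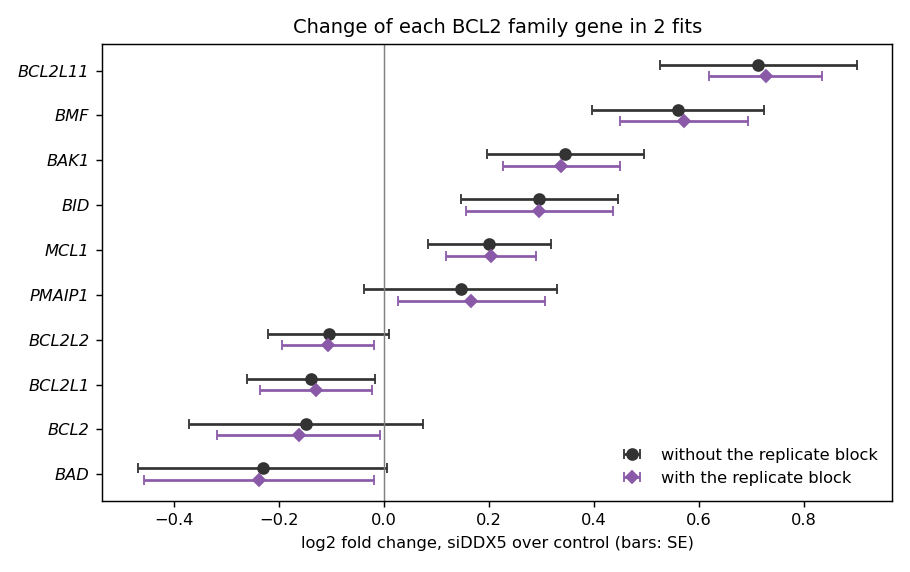
Log2 fold change of each BCL2 family gene, siDDX5 over control, with its standard error as a bar, fitted without (black circles) and with (purple diamonds) the replicate block. BCL2L11 at 0.71 and BMF at 0.56 stand to the right of the other 8 members, and the block shortens their bars.

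BCL2L11 (chr2:111119378-111168447, plus strand, GRCh38) encodes BIM, a BH3-only protein that binds every pro-survival member and can activate BAX and BAK1. It was measured at 23.5, 37.9 and 33.7 CPM in control replicates 1, 2 and 3, and 43.4, 52.1 and 60.4 CPM in the siDDX5 replicates. Every siDDX5 library was above every control library. These are bulk libraries, so more cells with the transcript and more RNA per cell cannot be told apart. The means were 31.7 ± 7.41 and 52.0 ± 8.53 CPM (SD, n = 3), a log2 fold change of 0.71 ± 0.19 (SE). The adjusted p was 0.196 in the direct edgeR fit, 0.0125 with the replicate block and 0.0145 in the DESeq2 Wald test. Replicate 3 of both groups stood apart in the hypoxia-linked family relatives BNIP3 and BNIP3L. Without both replicate 3 libraries the log2 fold change was 0.64 with an adjusted p of 0.577, and with the block it was 0.67 with an adjusted p of 0.0137 (edgeR).

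BMF (chr15:40087890-40108892, minus strand) encodes a BH3-only protein that is held on the myosin V motor complex until stress releases it. It was measured at 13.1, 9.04 and 12.1 CPM in control replicates 1 to 3 and 17.3, 15.7 and 17.6 CPM in the siDDX5 replicates, so the groups did not overlap. The log2 fold change was 0.56 ± 0.16 (SE), with an adjusted p of 0.247 in the direct edgeR fit, 0.0477 with the replicate block and 0.0725 in DESeq2. Without both replicate 3 libraries the blocked log2 fold change was 0.60, as large as the 0.57 with all 6, and on the remaining 4 libraries its adjusted p was 0.179 (edgeR).

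**Figure D3:**
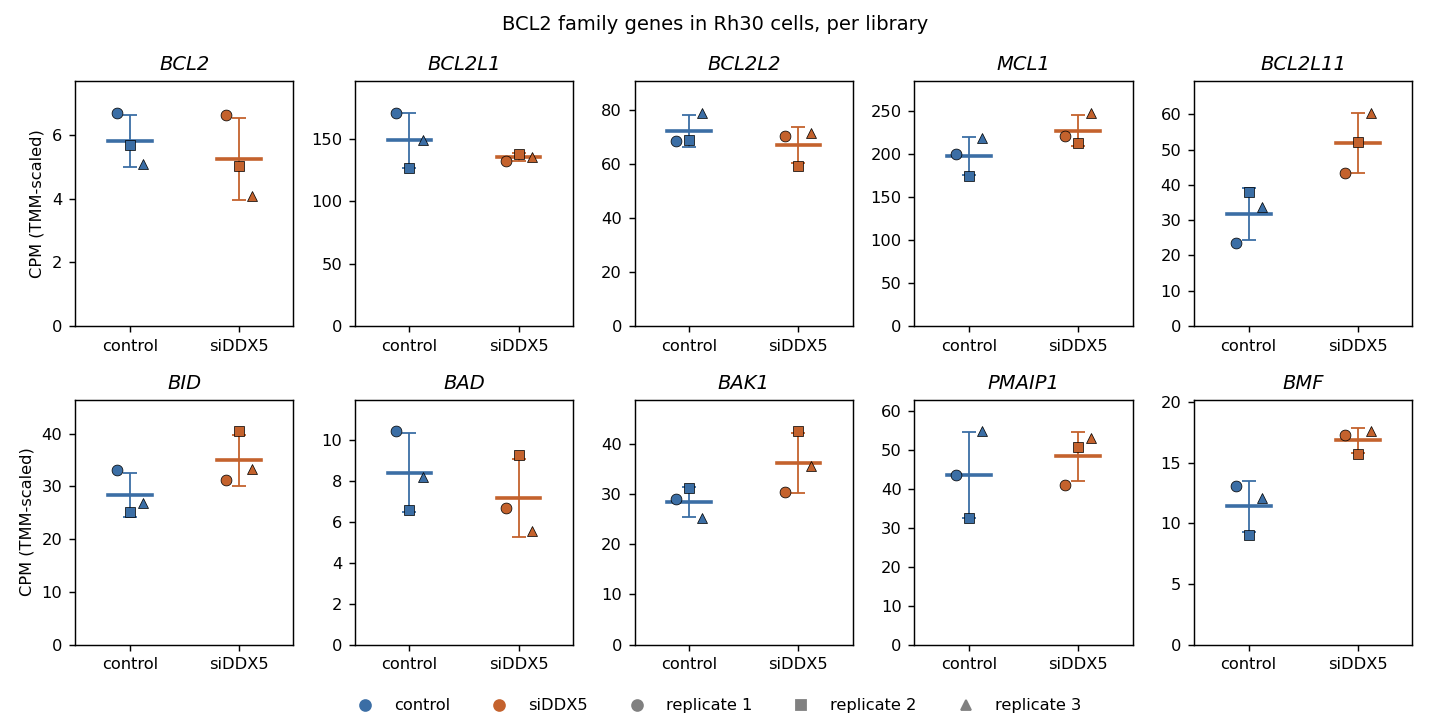
CPM of each BCL2 family gene in the 6 libraries, control in blue and siDDX5 in orange, with the marker shape giving the replicate number, the bar the mean and the whisker the SD (n = 3). The siDDX5 points of BCL2L11 and BMF lie above all control points, and the points of the other 8 members overlap between groups.

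The other BH3-only genes overlapped between groups in CPM. BID, whose protein is cleaved by caspase-8 and so links death receptors to the mitochondria, was at 33.1, 25.2 and 26.9 CPM in control and 31.1, 40.4 and 33.2 CPM in siDDX5 replicates 1 to 3. Its log2 fold change was 0.30 ± 0.15 (SE), at an adjusted p of 0.493 by edgeR. PMAIP1, which encodes NOXA, a selective ligand of MCL1, was at 43.5, 32.5 and 54.6 CPM in control and 41.0, 50.8 and 53.0 CPM in siDDX5 replicates 1 to 3. Its log2 fold change of 0.15 ± 0.18 (SE) became -0.02 without control replicate 2, the lowest of its libraries. BAD, which growth factor signalling phosphorylates and inactivates, was low in counts, with 10.4, 6.57 and 8.17 CPM in control and 6.69, 9.27 and 5.54 CPM in siDDX5 replicates 1 to 3. The BAD log2 fold change of -0.23 ± 0.24 (SE) was within the spread of the replicates, and was -0.04 without control replicate 1, -0.07 without siDDX5 replicate 3 and -0.11 with GC correction. Without control replicate 2 it was -0.37, and without siDDX5 replicate 2 it was -0.46.

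BAK1, the effector, was at 28.97, 31.2 and 25.2 CPM in control and 30.4, 42.5 and 35.6 CPM in siDDX5 replicates 1 to 3. The groups overlapped through siDDX5 replicate 1, which lay below control replicate 2. On the TPM scale BAK1 was at 15.7, 17.1 and 14.2 in control and 17.4, 21.5 and 19.7 in siDDX5 replicates 1 to 3, where the groups were just apart. BAK1 was higher in siDDX5 within each replicate number. The log2 fold change was 0.35 ± 0.15 (SE; unadjusted p = 0.0436, adjusted p = 0.425, edgeR; 0.136 with the replicate block).

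None of the 4 pro-survival genes passed the test in any of the fits. MCL1, a short-lived protein that many tumour cells depend on, was at 200, 175 and 219 CPM in control and 221, 213 and 248 CPM in siDDX5 replicates 1 to 3. It was higher in siDDX5 within each replicate number, yet the groups overlapped, with a log2 fold change of 0.20 ± 0.12 (SE), at an adjusted p by edgeR of 0.555, or 0.223 with the block. BCL2L1 was at 171, 127 and 149 CPM in control and 132, 138 and 136 CPM in siDDX5 replicates 1 to 3. The 3 siDDX5 libraries lay within the control range, and the log2 fold change was -0.14 ± 0.12 (SE), at an adjusted p of 0.713 by edgeR. It was -0.02 without control replicate 1 and -0.24 without control replicate 2.

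BCL2L2 was at 68.6, 69.1 and 79.0 CPM in control and 70.4, 59.4 and 71.6 CPM in siDDX5 replicates 1 to 3, with a log2 fold change of -0.10 ± 0.12 (SE). Its values are uncertain where the readthrough gene BCL2L2-PABPN1, at 4.92 to 9.63 CPM, shares its exons. BCL2, the founding member, was at 6.69, 5.69 and 5.07 CPM in control and 6.62, 5.04 and 4.07 CPM in siDDX5 replicates 1 to 3. It was lower in siDDX5 within each replicate number. Its log2 fold change of -0.15 ± 0.22 (SE) became 0.01 without siDDX5 replicate 3.

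The size of the BCL2L11 and BMF differences depended on the scale. On the TPM scale BCL2L11 was at 13.5, 22.5 and 23.1 in control and 21.6, 25.7 and 29.3 in siDDX5 replicates 1 to 3, and BMF at 4.42, 4.43 and 7.16 and then 8.14, 5.71 and 5.87, so both genes overlapped between groups. The log2 fold change of BCL2L11 was 0.44 on length-scaled TPM counts and 0.38 on log2(TPM + 1), and no TPM-based fit called it. Transcripts shorter than 1000 bases held 2.11% to 5.92% of the BCL2L11 counts but 28.0% to 49.4% of its TPM, since a few counts on a short transcript weigh heavily per base. For BMF those shares were 1.33% to 7.04% of the counts and 19.1% to 56.6% of the TPM. Over transcripts of at least 1000 bases, a sum added after the data were seen, BCL2L11 was at 7.84, 12.6 and 11.7 TPM in control and 15.5, 15.4 and 19.5 TPM in siDDX5 replicates 1 to 3. The same sum for BMF was 3.44, 2.35 and 3.11 TPM in control and 4.63, 3.83 and 4.75 TPM in siDDX5 cells. On these longer transcripts the groups did not overlap for either gene, with log2 ratios of the means of 0.65 and 0.57.

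**Figure D4:**
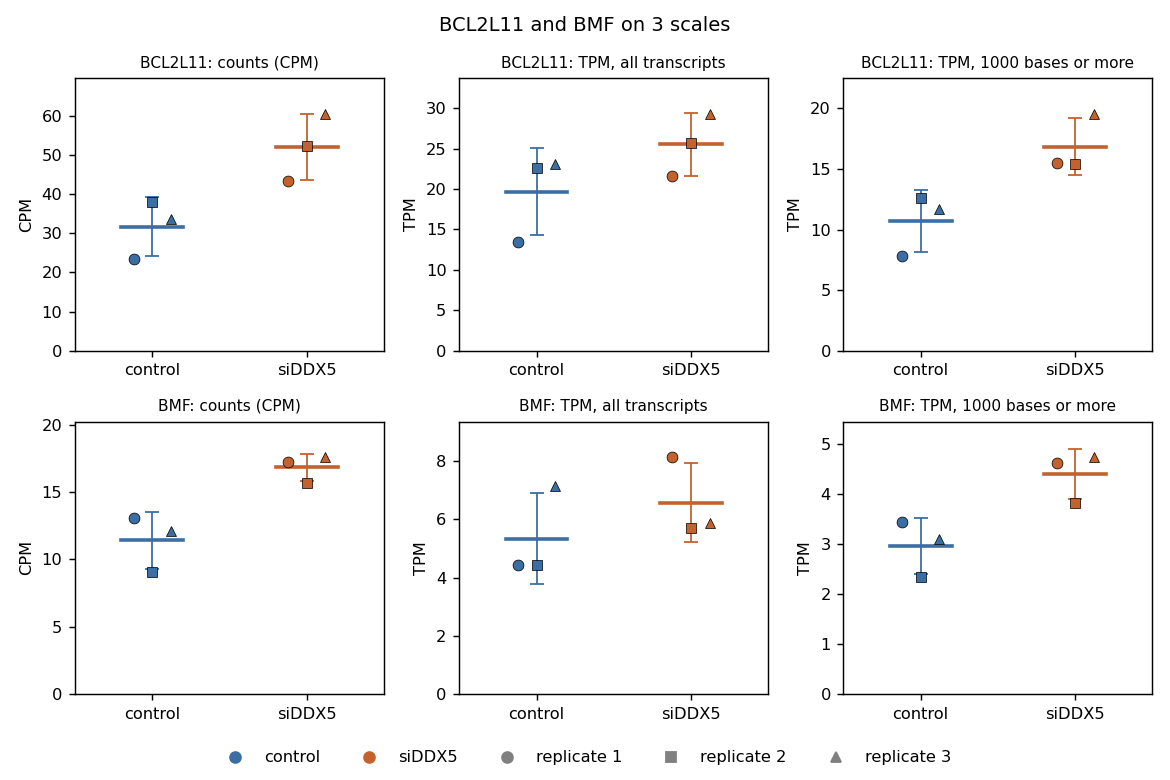
BCL2L11 (top) and BMF (bottom) in each library as CPM, as TPM over all transcripts and as TPM over transcripts of at least 1000 bases, with the mean and SD (n = 3) per group and the marker shape giving the replicate number. The groups are apart in the left and right panels and overlap in the middle panels, where short transcripts hold up to 49.4% of the BCL2L11 value.

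BID showed the reverse. Its TPM was 42.8, 29.6 and 32.5 in control and 49.5, 52.6 and 49.1 in siDDX5 replicates 1 to 3, above the control range, whereas over transcripts of at least 1000 bases it was 18.7 ± 2.19 and 19.8 ± 1.32 TPM (SD, n = 3). Among its shorter transcripts was ENST00000551952, 700 bases long and encoding the full 195-residue protein, at 6.59, 4.00 and 4.12 CPM in control and 7.85, 9.45 and 8.71 CPM in siDDX5 replicates 1 to 3. Its log2 fold change was 0.82 ± 0.26 (SE; unadjusted p = 0.0177, adjusted p = 0.633, edgeR).

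At the level of single transcripts, 41 of the 86 member transcripts passed the filter, and 0 were called by edgeR, where 0% of all 61167 transcripts tested were called. At an unadjusted edgeR p under 0.05 there were 2 (the BID transcript above and the main BCL2L11 transcript), beside 7.09% of all transcripts. The share of all transcripts that DESeq2 called is not given here, and among the members it called 1. That transcript was ENST00000393256, which encodes the 198-residue BIM EL form, the longest of the classical BIM forms and the one regulated by ERK phosphorylation. It was at 10.4, 14.2 and 13.2 CPM in control and 18.1, 28.2 and 27.8 CPM in siDDX5 replicates 1 to 3, with every siDDX5 library above every control library. The log2 fold change was 0.97 ± 0.23 (SE), with an adjusted p of 0.479 in edgeR, 0.622 with the replicate block and 0.0177 in DESeq2.

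A second BCL2L11 transcript, ENST00000620862, with 109 codons and a coding sequence that ends before the last exon, was at 3.56, 9.61 and 11.1 CPM in control and 13.03, 14.2 and 15.6 CPM in siDDX5 replicates 1 to 3. Its log2 fold change was 0.82 ± 0.40 (SE), at an adjusted p of 0.754 by edgeR. The remaining transcript that held at least 10% of the gene, ENST00000615946 with 85 codons, was at 4.601 ± 0.475 CPM in control and 5.20 ± 2.85 in siDDX5 cells. The L form (138 codons) and the S form (112 codons) held few counts, at most 3.02% and 2.99% of the gene in any library. On TPM, where short transcripts weigh more, the S form held 21.3%, 3.38% and 12.7% in control replicates 1 to 3. It held 7.99%, 3.47% and 4.96% of the TPM in siDDX5 replicates 1 to 3, so the groups overlapped. The L form held at most 5.87% of the TPM in any library. The EL form held 43.5%, 38.7% and 38.9% of the gene's counts in control and 41.4%, 52.1% and 45.0% in siDDX5 replicates 1 to 3, which overlapped.

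Transcripts whose coding sequence contains the BH3 core printed above held 89.5%, 83.6% and 89.1% of the BCL2L11 counts in control and 89.4%, 90.7% and 94.6% in siDDX5 replicates 1 to 3. The BCL2L11 counts thus fell mostly on transcripts that encode the binding helix in both groups. Of the 25 BCL2L11 transcripts, 11 have the core and 14 have an annotated coding sequence without it, and each of these sets includes 4 annotated for nonsense-mediated decay. On estimated counts the lowest such share of any member was in BID, at 80.3% ± 3.82 in control and 75.3% ± 6.92 in siDDX5 cells (SD, n = 3). The shares differed on TPM. There BCL2L11 was at 59.9%, 75.4% and 62.7% in control and 69.0%, 69.6% and 79.2% in siDDX5 replicates 1 to 3. On that scale BMF was at 63.6% ± 14.5 in control and 75.1% ± 7.91 in siDDX5 cells. BID was at 81.4% ± 1.73 and 75.2% ± 5.24, so it was not the lowest in control cells on TPM.

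Transcript usage, the test of whether the transcripts of a gene shift relative to each other, called 0 of the 10 members (Simes adjusted p = 1 for each), where 1.59% of the 10704 genes tested were called. No member had an unadjusted usage p under 0.05, beside 5.37% of those genes. The shares of 10 named protein forms were compared by a two-sided exact permutation test over the libraries, which cannot go below p = 0.1 with 3 libraries against 3. None came below an adjusted p of 1 on estimated counts. On TPM the share of the BIM EL form was 24.3%, 21.1% and 18.9% in control and 28.2%, 30.9% and 29.9% in siDDX5 replicates 1 to 3, which did not overlap (exact permutation p = 0.1, adjusted p = 0.833).

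BCL2L1 and MCL1 each have a long pro-survival form and a short form known to promote death, and the junctions that define them are shown because kallisto's assignment rests on them. Each line gives 15 bases before the junction in lower case and 15 bases after it in capitals, from GENCODE v29 transcripts on the coding strand. The coordinates are GRCh38, both genes lie on the minus strand, and the span runs from the first base after the junction to the last base before it.
BCL2L1 long form, chr20:31666086-31721655: gagaacggcggctggGATACTTTTGTGGAA
BCL2L1 short form, chr20:31666086-31721844: cagagctttgaacagGATACTTTTGTGGAA
MCL1 long form, chr1:150578491-150578843: agacggccttccaagGCATGCTTCGGAAAC
MCL1 short form, chr1:150577491-150578843: agacggccttccaagGATGGGTTTGTGGAG
MCL1 intra-exon form, chr1:150578963-150579423: ggagggcgacttttgGCCACCGGCGCCAAG
The BCL2L1 forms share the exon after the junction, and the short form leaves out the last 189 bases of the exon before it. The MCL1 short form joins the same first exon to the last one and skips the middle exon. The 197-codon form has a junction inside the first coding exon that the long form lacks.

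The long BCL2L1 form (BCL-XL, 233 codons) held 80.2%, 80.8% and 78.1% of the gene's counts in control and 79.9%, 79.4% and 79.3% in siDDX5 replicates 1 to 3. The short form (BCL-XS, 170 codons) held 3.51%, 2.83% and 4.37% in control and 2.26%, 3.37% and 6.23% in siDDX5 cells. The lowest and the highest of these short form shares were both siDDX5 libraries, and the difference of 0.38 percentage points became -0.758 without siDDX5 replicate 3.

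The long BCL2L1 form comes from 2 transcripts that differ in their first exon and encode the same protein. Their shares did not overlap between the groups, as was the case for 4 of the 24 member transcripts with at least 10% of their gene (these 2 and 2 of BID), beside 14.8% of the 30387 such transcripts of all genes tested, a share near that of the members. ENST00000307677 held 62.7%, 64.2% and 59.6% of the gene in control and 58.0%, 49.9% and 54.1% in siDDX5 replicates 1 to 3. In GENCODE v29 it begins at chr20:31722898 and has 2610 bases. The version that was quantified has 2574 bases, so its exact start is not known here. ENST00000376062, which begins further downstream at chr20:31722597, held 17.5%, 16.6% and 18.5% in control and 22.0%, 29.6% and 25.2% in siDDX5 cells. Their log2 fold changes were -0.31 ± 0.14 and 0.44 ± 0.21 (SE), with edgeR adjusted p-values of 0.735 and 0.745, so neither passed the test, and their unadjusted usage p-values were 0.439 and 0.0948 (diffSpliceDGE). A further transcript with an incomplete coding sequence, ENST00000422920, held 14.7% ± 0.4 in control and 14.3% ± 1.0 in siDDX5 cells (SD, n = 3).

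MCL1 counts fell mainly on the long form and the 197-codon form. The long form (350 codons, ENST00000369026) was at 138, 98.1 and 139 CPM in control and 145, 131 and 101 CPM in siDDX5 replicates 1 to 3, with a log2 fold change of 0.00 ± 0.19 (SE), at an adjusted p of 0.999 by edgeR. The 197-codon transcript ENST00000620947 was at 49.8, 59.5 and 70.2 CPM in control and 63.1, 81.7 and 142 CPM in siDDX5 replicates 1 to 3. The value in siDDX5 replicate 3 was far above the others, and there this form took 56.0% of the gene against 39.9% for the long form. In the other 5 libraries the long form held the larger share. The log2 fold change of the 197-codon transcript was 0.67 ± 0.31 (SE), at an adjusted p of 0.735 by edgeR. The short form (271 codons) held between 0.976% and 1.51% of the gene in every library. That share leaves out the 197-codon form, whose function was not tested.

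**Figure D5:**
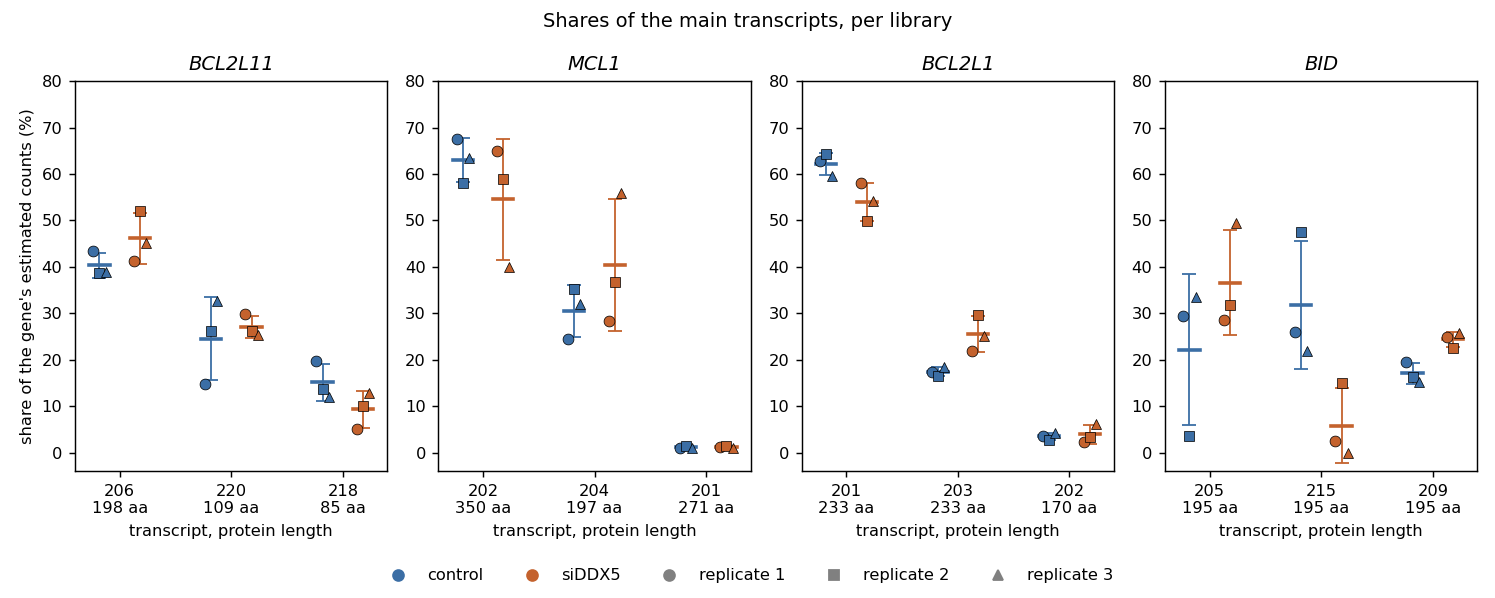
Share of the gene's estimated counts held by the named transcripts of BCL2L11, MCL1, BCL2L1 and BID in each library (control blue, siDDX5 orange), with the mean and SD (n = 3), and with the transcript number and the length of its protein under the axis. The first 2 BCL2L1 transcripts and the last 2 BID transcripts do not overlap between groups, and siDDX5 replicate 3 is the 1 library in which the MCL1 197-codon transcript exceeds the long form.

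Of the remaining members, BCL2L2 had 1 main transcript, with 96.7% to 97.9% of its counts, and PMAIP1 likewise, with 94.5% to 97.7%. BAK1 counts lay on the full-length transcript ENST00000374467 at 77.8% to 96.5%, and the rest mostly on ENST00000442998, whose coding sequence has 153 codons. BCL2 was split between the membrane-anchored alpha form (67.3% ± 4.83 in control, 66.1% ± 4.88 in siDDX5) and the beta form (31.1% ± 4.26 and 33.1% ± 5.36), on at most 172 counts a library. BMF had 2 transcripts for the same 184-residue protein, of which ENST00000397573 was at 6.73 ± 3.87 CPM in control and 12.4 ± 2.14 in siDDX5 cells, and ENST00000354670 at 4.12 ± 3.50 and 4.23 ± 2.47 CPM (SD, n = 3). BID counts were spread over 4 transcripts with at least 10% of the gene. ENST00000622694 held 25.97%, 47.5% and 21.9% of the gene in control and 2.46%, 15.1% and 0.02% in siDDX5 replicates 1 to 3, which did not overlap. In edgeR's diffSpliceDGE its unadjusted usage p was 0.0213, while the gene as a whole had 0.17 and an adjusted p of 1. Its near-identical neighbour ENST00000399774 held 29.4%, 3.6% and 33.5% in control and 28.5%, 31.9% and 49.4% in siDDX5 cells, and encodes the same 195 residues. BAD counts lay mainly on ENST00000309032, at 69.2% ± 2.3 in control and 62.6% ± 12.2 in siDDX5 cells, and a retained-intron transcript, ENST00000544271, held 12.6% ± 1.1 and 17.3% ± 4.0. A further BAD transcript, ENST00000394532, held 7.1% ± 2.1 in control and 10.4% ± 8.1 in siDDX5 cells.

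BCL2L11 and BMF were the members called with the replicate block (the direct fit called neither, and DESeq2 BCL2L11 alone), and the sequence before their start sites is shown for that reason. The windows span 250 bases before to 50 bases after the start in RefSeq (GRCh38.p14), 5′ to 3′ on the gene's strand, and 8 of the 10 members had an entry in that table. Capitals mark the word GTAAACA, a core bound by FOXO factors, and the word GGGCGG, a core bound by SP1, on either strand; FOXO factors are known activators of BCL2L11 in other cells.
BCL2L11, chr2:111120664-111120963, plus strand: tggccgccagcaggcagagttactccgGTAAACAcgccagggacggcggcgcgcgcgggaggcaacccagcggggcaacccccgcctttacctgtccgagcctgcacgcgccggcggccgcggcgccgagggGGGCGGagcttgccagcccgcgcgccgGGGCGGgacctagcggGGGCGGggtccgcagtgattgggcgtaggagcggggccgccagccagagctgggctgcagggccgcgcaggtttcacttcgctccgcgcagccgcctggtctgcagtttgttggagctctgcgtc
BMF, chr15:40108830-40109129, minus strand: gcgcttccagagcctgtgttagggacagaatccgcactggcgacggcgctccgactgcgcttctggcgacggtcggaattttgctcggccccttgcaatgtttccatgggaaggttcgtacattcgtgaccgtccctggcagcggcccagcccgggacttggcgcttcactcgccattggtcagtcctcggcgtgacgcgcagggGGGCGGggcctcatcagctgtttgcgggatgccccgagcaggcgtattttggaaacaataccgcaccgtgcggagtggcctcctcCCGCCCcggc
The BCL2L11 window has 1 GTAAACA match, beginning 223 bases before the start, and it was the 1 member window with a match to that word, which 3.42% of all 35116 windows hold. GGGCGG occurred at 3 places in the BCL2L11 window and 2 in the BMF window printed. It was in 44.95% of all windows, and 7 of the 8 members had it in a window. These were 2 of 6 words searched. CCAAT was in both windows and in 34.6% of all windows, and 4 of the 8 members had it in a window. Members were counted by gene, with a match in any of their windows, and BMF has 2 windows. CAGCTG was in the BMF window and 17.9% of all, and CACGTG in a BID window and 7.26% of all. TTTCCCGC was in no member window and 1.63% of all. The BMF window printed belongs to the upstream start, near that of ENST00000354670, and ENST00000397573 begins further downstream at chr15:40106448.

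Of the 15 other BCL2 family genes listed, 12 passed the filter and 0 were called, with 0 at an unadjusted p under 0.05 and a median log2 fold change of -0.001. BAX, the second effector, was at 57.3, 63.9 and 57.9 CPM in control and 54.4, 83.4 and 65.7 CPM in siDDX5 replicates 1 to 3. The lowest log2 fold change of the list was in HRK (-0.52), which became 0.81 on length-scaled TPM counts, and the highest in BNIP3L (0.37), which became -0.37 without siDDX5 replicate 3.

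Downstream of the family, the machinery that turns mitochondrial permeabilisation into caspase activity was listed with 16 genes. In the direct fit 0 were called and 6 had an unadjusted p under 0.05, all higher in siDDX5, with a median log2 fold change of 0.14, where 11.4% of all genes had such a p in either direction. With the replicate block 1 of the 16 was called, beside 2.59% of all genes. It was APAF1, the scaffold of the apoptosome. APAF1 was at 59.0, 52.5 and 72.7 CPM in control and 89.8, 72.3 and 110 CPM in siDDX5 replicates 1 to 3, with a log2 fold change of 0.56 ± 0.17 (SE), at an adjusted p by edgeR of 0.253, or 0.0125 with the block. Without both replicate 3 libraries its blocked log2 fold change was 0.54, beside 0.56 with all 6, and the adjusted p on the remaining 4 libraries was 0.0661 (edgeR).

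Also among these 6, and named here after their values were seen, were CYCS (log2 fold change 0.41, edgeR adjusted p = 0.369), VDAC2 (0.35) and VDAC1 (0.31). CYCS encodes cytochrome c, and the VDAC genes encode channels of the outer mitochondrial membrane, of which VDAC2 binds BAK1. The lowest value of the list was in ENDOG (-0.39).

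Of the 7 caspase inhibitor genes, 6 were tested and 0 called, from BIRC6 at -0.09 to BIRC5 at 0.24. The sign of BIRC6 depended on the scale, with 0.10 on length-scaled TPM counts. Of the 13 death receptor genes, 11 were tested and 0 called, from TNFRSF10C at -0.29 to TNFRSF10D at 0.46.

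Among 26 listed regulators of the family's transcription and turnover, 25 were tested and 1 was called, beside 0.164% of all genes. It was BTRC, which was lower. BTRC encodes an F-box protein of a ubiquitin ligase whose known substrates include BIM EL and MCL1. It was at 58.5, 59.5 and 59.3 CPM in control and 37.2, 30.8 and 37.2 CPM in siDDX5 replicates 1 to 3, with a log2 fold change of -0.75 ± 0.11 (SE), at an adjusted p by edgeR of 0.0422, or 0.0087 with the block. Leaving out any 1 library raised the adjusted p to between 0.0984 and 0.218, and its log2 fold change stayed between -0.80 and -0.67. Over all 19 settings, of edgeR, DESeq2 and limma, the adjusted p ran from 7.56e-06 (DESeq2) to 0.442. With the block 2 of the 25 were called, BTRC and AKT1, both lower, beside 2.59% of all genes. AKT1, a kinase that inactivates BAD, was at 244, 208 and 185 CPM in control and 152, 143 and 132 CPM in siDDX5 replicates 1 to 3. Its log2 fold change was -0.58 ± 0.12 (SE), at an adjusted p by edgeR of 0.111, or 0.0135 with the block.

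The highest regulator was MYC (0.30, edgeR adjusted p = 0.498). DYNLL2, which encodes the dynein light chain that tethers BMF, was at 0.30 ± 0.09 (SE), at an adjusted p of 0.285 by edgeR and is named after its value was seen. FOXO1 and FOXO3, which activate BH3-only genes, were at -0.08 and -0.19 on the log2 scale and did not pass the test. The FOXO1 counts were not divided between FOXO1 itself and its fusion with PAX3, which these cells carry. Of 17 listed splicing factors that act on family transcripts, 16 were tested and 0 called, from HNRNPH1 at -0.06 to DDX17, the paralog of DDX5, at 0.26 (edgeR adjusted p = 0.405).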

How the data were processed

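Total RNA of 3 control and 3 siDDX5 samples of Rh30 cells was made into stranded mRNA libraries, per the labels' protocols. The submitters' processing notes name bcl2fastq 2.20, FastQC 0.11.8, cutadapt 1.11 and kallisto 0.46.0 with GRCh38. The authors deposited, for each library and transcript, estimated counts and TPM from kallisto. Tool settings and the annotation release are not given in the sources used here.

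Transcripts were joined to GENCODE v29 genes by identifier without its version, then by symbol or position, which placed at least 99.59% of the estimated counts, and summed per gene. Of the estimated counts above 0, 91.1% to 91.7% were not whole, and they were rounded for the count models. Genes passing edgeR 4.0.16's filterByExpr were scaled by TMM and tested with the quasi-likelihood F test and Benjamini-Hochberg adjustment over all genes tested, with calls at 0.05. Transcripts were tested in the same way and transcript usage with diffSpliceDGE. DESeq2 1.42.0, limma 3.58.1 on log2(TPM + 1) and log2(TPM + 0.1), other filters, a GC correction and leaving out each library were alternatives. The fits were also tested on simulated data.

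Same-numbered control and siDDX5 samples deviated together (correlations of 0.198, 0.257 and 0.558 over genes for numbers 1, 2 and 3), so the numbers were taken to pair the samples, as a result of this check and not of a stated design. The highest correlation between differently numbered samples was 0.082, for control replicate 1 with siDDX5 replicate 2. The replicates are described as biological, with no word on separate cultures, so the p-values measure the spread between these libraries. Counting floors were 3 counts, or 0.115 to 0.165 CPM. The coding windows and junctions come from GENCODE v29, in which some member transcripts carry an earlier version number than in the tables.

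The members and gene lists were chosen with earlier results of these data known. Named in the text were all members, their transcripts with at least 10% of the gene's counts in either group or an unadjusted p under 0.05, DDX5, and of each list the genes called and the highest and lowest. A few listed genes are not reported here by name.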

Additional observations from a re-analysis of the deposited data

How the results depend on the processing

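At the gene level 0 members were called in the direct edgeR fit, beside 0.164% of all genes, and 0 in every single library omission. DESeq2 called 1, the replicate block 2, beside 2.59% of all genes, and the block with GC correction 2. Without both replicate 3 libraries the number called was 0, and 1 with the block. For single transcripts the number called was 0 with edgeR and 1 with DESeq2. Shares of all features called are not given here for the other settings, so those counts have no background beside them. The pathway lists gave 1 called gene, and 3 with the replicate block. The block changed no other call of a member. Counts per kilobase are close to TPM times a constant, so that scale could not change the order of the levels. Over transcripts of at least 1000 bases, 6 ranks changed in control and 7 in siDDX5 cells.

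The sign turned in a few small differences. Leaving out 1 library each, the log2 fold change ranged from -0.35 to 0.011 for BCL2, -0.0194 to 0.34 for PMAIP1, -0.37 to 1.06 for BNIP3L, -0.10 to 0.0156 for HNRNPH1 and -0.15 to 0.14 for the MCL1 transcript ENST00000369026, which was also -0.0161 when transcripts averaging below 50 counts were dropped. HRK was 0.81 on length-scaled TPM counts. BIRC6 was 0.10 on those counts and 0.0472 and 0.0478 in the limma fits on log2(TPM + 1) and log2(TPM + 0.1). BAD was 0.21 over transcripts of at least 1000 bases. Differences in share, in percentage points with 1 library left out, ranged from -0.907 to 0.444 for the long BCL2L1 form, -0.758 to 1.23 for its short form, -0.08 to 0.204 for the MCL1 short form, -1.31 to 0.205 for the BCL2L11 L form and -1.09 to 3.72 for the BCL2 beta form. The causes were not tested.

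With 3 libraries a group and 18202402 to 26156858 counts each, differences of the size seen for BAK1 and MCL1 did not pass the adjusted threshold, although both were higher in siDDX5 within each replicate number (blocked unadjusted p = 0.014 and 0.0419, edgeR). The lowest adjusted p for BAK1 was 0.0585, with the replicate block and GC correction. BCL2 was lower in siDDX5 within each replicate number (blocked unadjusted p = 0.3265, edgeR). The share of all genes that kept their direction within each replicate number is not given here.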

Other observations

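BNIP3 and BNIP3L, BCL2 family relatives that mark mitochondria for autophagy and are known targets of hypoxia-inducible factor, separated the libraries by replicate number rather than by group. BNIP3 was at 20.5, 18.1 and 148 CPM in control replicates 1, 2 and 3 and at 19.8, 21.4 and 184 CPM in siDDX5 replicates 1, 2 and 3. BNIP3L was at 108, 81.5 and 271 CPM in control and 123, 113 and 359 CPM in siDDX5 replicates 1, 2 and 3. Replicate 3 was the highest in both groups for both genes. HIF1A itself was at 658, 593 and 685 CPM in control and 624, 642 and 564 CPM in siDDX5 replicates 1, 2 and 3, with overlapping groups. For BNIP3L the log2 fold change was 0.36 with the replicate block (edgeR adjusted p = 0.0787) and 0.37 without it (0.828).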
